A study of Mus musculus with 7 samples.

Results

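Collagen chain genes were described in RNA-seq of mouse hippocampus, which the brain needs to form new memories of places and events. All 44 genes whose symbol has the form of a collagen alpha chain were taken, out of 21965 genes in the table, without regard to their values. They comprised 11 fibrillar chains, 6 basement membrane chains of type IV and 27 other chains. The libraries came from 4 NIHHL samples, NIHHL standing for hidden hearing loss induced by noise of 110 dB for 2 h, and from 3 samples of blank control mice (Control), with tissue taken 1 month after induction. No genetic change is named in the labels for either group, and strain, sex, age and litter are not given there. Whether 1 library stands for 1 mouse is not stated, and p-values therefore refer to the spread over samples, part of which may be technical. Hidden hearing loss is a model in which noise impairs hearing without the lasting threshold shift of ordinary deafness, and the study asked how it relates to memory.

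Collagens are extracellular matrix proteins built from alpha chains wound into a triple helix, which are hydroxylated, folded and glycosylated in the endoplasmic reticulum before secretion. Fibrillar collagens form the tension-bearing fibrils of connective tissue, which in brain is found mainly in the meninges and around larger vessels, whereas type IV collagen forms the network of basement membranes beneath endothelium and epithelium. Transmembrane and fibril-associated collagens include chains made by neurons.

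Total counts ran from 16982198 to 21585789 in NIHHL libraries and from 14871367 to 24515138 in Control libraries, and the 44 chains together held 4529 to 7122 counts in NIHHL and 3797 to 6506 in Control. The 11 hippocampal neuron markers were all detected, with a summed level of 6198 to 6796 CPM (counts-per-million, scaled between libraries by the trimmed mean of M values) in NIHHL and 5736 to 7086 CPM in Control. Of the marker lists, the one that varied most between libraries was that of choroid plexus, the epithelium beside the hippocampus that secretes cerebrospinal fluid. The 13 choroid plexus markers summed to 8854, 675, 4855 and 4556 CPM in NIHHL replicates 1 to 4, against 203, 7233 and 1571 CPM in Control replicates 1 to 3. NIHHL replicate 2, Control replicate 1 and Control replicate 3 were thus low and the other 4 libraries high. Each group held both kinds, but the low kind made up more of Control, and all 13 markers were higher in NIHHL on average. The 8 markers of ependyma, the ciliated lining of the ventricles, summed to 60.8 to 77.7 CPM in NIHHL and 39.4 to 53.9 CPM in Control, with no overlap, and their part in the collagen levels was not tested. In such bulk tissue, fewer cells of a type and less RNA per cell cannot be told apart.

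Promoter sequences are shown for 2 pairs of chains whose levels moved together between libraries: Col1a2 and Col3a1, and Col8a1 and Col8a2. Each is the 250 bases before the gene's start in RefSeq, build GRCm38.p6, on the gene's own strand, and the table held a window for 35 of the 44 members. Capitals mark matches on either strand to 3 motifs, and adjoining matches run together. The first is the letters CCAAT themselves. The TATA box was searched as TATAAA. The GC box was searched as GGGCGG.
Col1a2, chr6:4505368-4505617, plus strand: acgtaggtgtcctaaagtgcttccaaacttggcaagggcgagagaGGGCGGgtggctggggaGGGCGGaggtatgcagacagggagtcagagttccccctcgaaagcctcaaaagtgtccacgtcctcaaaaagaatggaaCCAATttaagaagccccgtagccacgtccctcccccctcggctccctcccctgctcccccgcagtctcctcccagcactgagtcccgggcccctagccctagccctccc
Col3a1, chr1:45311288-45311537, plus strand: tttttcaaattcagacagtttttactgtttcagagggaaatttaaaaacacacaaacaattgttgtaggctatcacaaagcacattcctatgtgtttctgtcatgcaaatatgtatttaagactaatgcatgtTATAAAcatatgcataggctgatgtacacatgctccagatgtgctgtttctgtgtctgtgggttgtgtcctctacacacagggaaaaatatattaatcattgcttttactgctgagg
Col8a1, chr16:57754738-57754987, minus strand: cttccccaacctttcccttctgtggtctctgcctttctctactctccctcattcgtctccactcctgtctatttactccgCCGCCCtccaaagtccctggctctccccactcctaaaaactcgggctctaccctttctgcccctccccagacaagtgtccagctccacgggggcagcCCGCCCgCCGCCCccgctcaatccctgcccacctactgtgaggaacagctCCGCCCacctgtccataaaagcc
Col8a2, chr4:126286544-126286793, plus strand: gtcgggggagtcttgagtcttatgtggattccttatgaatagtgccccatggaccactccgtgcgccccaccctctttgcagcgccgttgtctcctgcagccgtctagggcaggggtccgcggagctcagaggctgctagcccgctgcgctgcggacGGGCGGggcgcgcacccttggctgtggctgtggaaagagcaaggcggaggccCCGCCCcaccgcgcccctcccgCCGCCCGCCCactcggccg

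Both type VIII chains carried 4 GC boxes and neither other motif in this window. Col1a2 had 2 GC boxes and 1 CCAAT box, while Col3a1 had 1 TATA box and no GC box. A GC box was found in 21 of the 35 member windows, 60.0%, and in 32.7% of all 32851 RefSeq windows, which also cover non-coding genes. For the CCAAT box the counts were 12 of 35 members, 34.3%, and 33.9% of all windows. The TATA box was found in 5 of 35 members, 14.3%, and in 12.4% of all windows.

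Levels of different genes were compared per kilobase of exon. The highest chains over all 7 libraries were Col9a3, a chain of fibril-associated collagen IX, at 6.17 CPM per kb, and Col25a1, a neuronal transmembrane collagen also found in amyloid plaques, at 5.44 CPM per kb. Next came Col8a2 at 3.13, Col4a2 at 3.097 and Col4a1 at 2.97 CPM per kb, with no clear gap between them. The order differed between groups: Col9a3 was at 7.36 CPM per kb in NIHHL and 4.57 in Control, Col25a1 at 5.42 in NIHHL and 5.47 in Control, and Col8a2 at 3.96 in NIHHL and 2.03 in Control, where it lay below Col4a2 at 2.98 and Col4a1 at 2.78. The highest fibrillar chain was Col11a2 at 1.86 CPM per kb, above Col1a2 at 1.103 and Col1a1 at 0.928 CPM per kb. By CPM alone Col1a2, at 13.7, was above Col11a2, at 12.8. Lengths were the union of all annotated exons, 12426 bases for Col1a2 and 6874 for Col11a2, so this rank depends on them. The 4 members with the lowest level per kilobase did not reach the minimum count for testing: Col24a1 had 0 to 2 counts in NIHHL libraries and 1 to 3 in Control libraries, Col28a1 had 0 to 5 and 3 to 11, Col7a1 had 4 to 8 and 8 to 10, and Col10a1 had 0 to 1 and 1 to 5.

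**Figure D1:**
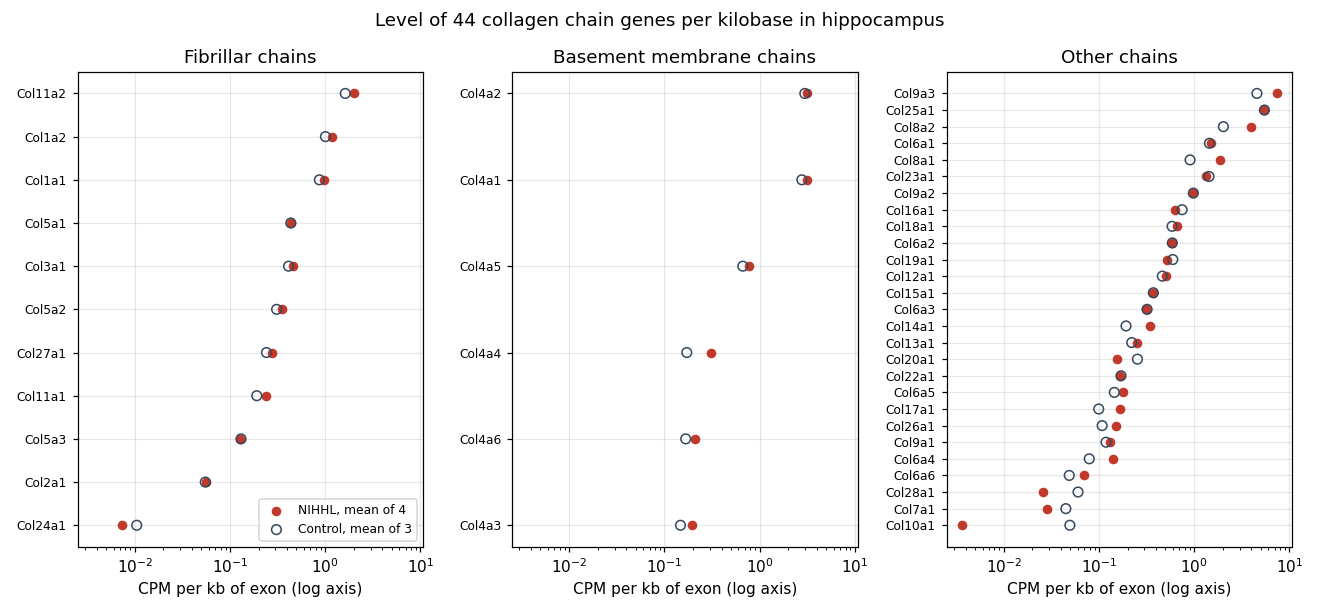
Mean level of the 44 collagen chain genes in CPM per kilobase of exon, on a log axis, in NIHHL (filled, mean of 4 libraries) and Control (open, mean of 3 libraries), by class. Col9a3, Col25a1 and Col8a2 lead the other chains, Col4a1 and Col4a2 lead the basement membrane chains and Col11a2 leads the fibrillar chains.

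The comparison of NIHHL with Control asked which chains differed after noise. The chains with the smallest p were Col14a1 and Col11a2, both higher in NIHHL, but of the 40 members tested 0 passed a Benjamini-Hochberg adjusted p under 0.05 in edgeR's quasi-likelihood test, against 0.00% of all 14417 genes tested. At an unadjusted p under 0.05 there were 2 members, against 3.63% of all genes; both were higher in NIHHL, against 2.32% of all genes, and 0 lower, against 1.31%. Among the tested members, the groups did not overlap in these 2, both higher in NIHHL, against 5.20% of all genes in either direction and 2.84% for higher. These shares are near the background. Of the 4 members with too few counts to be tested, Col7a1 and Col10a1 also had groups that did not overlap, both lower in NIHHL. This was near the floor: 4 to 8 counts in NIHHL against 8 to 10 in Control for Col7a1, and 0 to 1 against 1 to 5 for Col10a1. The shares above cover tested genes only, and none was computed for untested genes. DESeq2's Wald test called 0 members, against 0.0220% of the genes it tested, and limma-voom called 0, against 0.00%. Each gave 2 members at an unadjusted p under 0.05, among 447 genes in DESeq2 and 543 of 14417 genes in limma-voom.

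A positive log2 fold change (NIHHL minus Control) was found in 30 of the 40 members, against 49.9% of all tested genes. By class it was positive in 9 of 10 fibrillar, 6 of 6 basement membrane and 15 of 24 other chains. The median log2 fold change was 0.17 in fibrillar, 0.27 in basement membrane and 0.14 in other chains, beside -0.0005 over all genes tested. Control replicate 2 carried part of this: it was the lowest of the 7 libraries in 16 of the 40 members, against 20.7% of all genes. Without it, 24 members were positive and the fibrillar median turned to -0.08, while the basement membrane median was 0.31 and that of the other chains 0.10. Leaving it out also changed the choroid plexus content of Control, since its markers summed to 7233 CPM there, against 203 and 1571 CPM in Control replicates 1 and 3. Of the 6 basement membrane chains, 4 were lowest in NIHHL replicate 2 and Control replicates 1 and 3, the libraries low in that RNA.

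**Figure D2:**
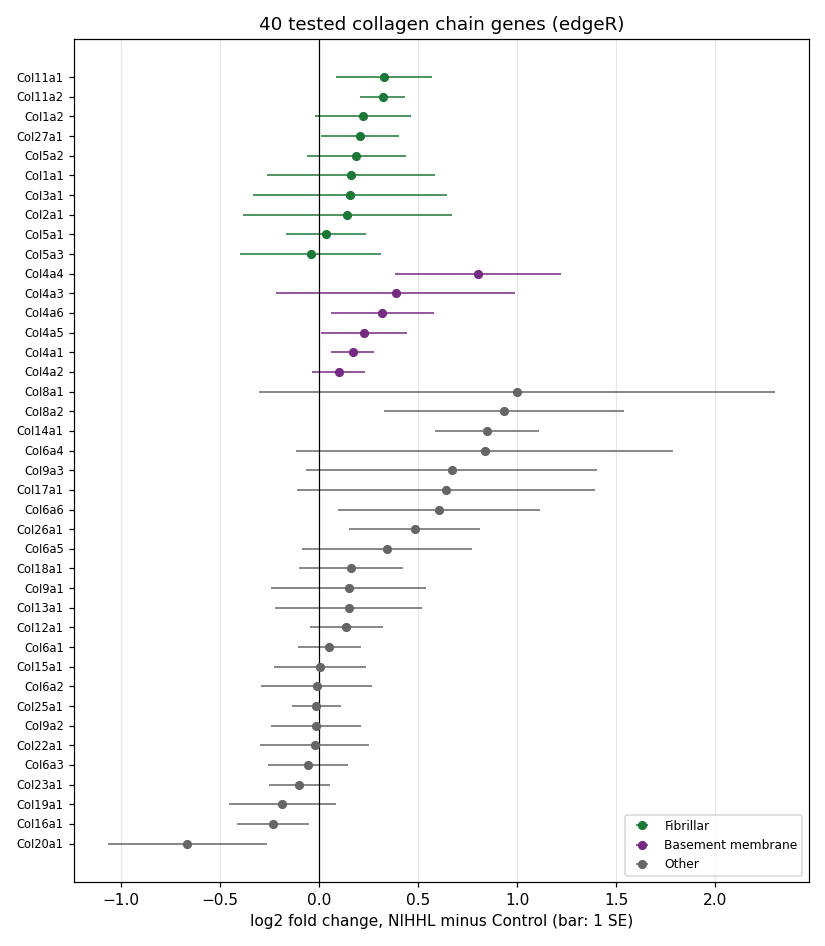
Log2 fold change (NIHHL minus Control, edgeR) of the 40 tested collagen chain genes, sorted within class, with bars of 1 SE. In 9 of 10 fibrillar and all 6 basement membrane chains the point lies above 0. Over all 40 chains most bars reach or cross 0, but among basement membrane chains only those of Col4a2 and Col4a3 do.

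Among the fibrillar chains, type I and type III collagen form the common fibrils of meninges and vessel walls. Col1a1, the major chain of type I collagen (ENSMUSG00000001506), was at 5.71, 10.1, 5.67 and 4.07 CPM in NIHHL replicates 1 to 4, against 5.33, 2.85 and 8.96 CPM in Control replicates 1 to 3. Its partner Col1a2 was at 16.8, 17.5, 12.1 and 12.03 CPM in NIHHL, against 11.7, 8.47 and 17.4 CPM in Control. Col3a1, the chain of type III collagen, was at 5.02, 6.55, 3.74 and 2.65 CPM in NIHHL, against 3.64, 1.59 and 6.93 CPM in Control. In all 3 genes NIHHL replicate 2 and Control replicate 3 were the highest libraries and Control replicate 2 the lowest, so the groups overlapped. The log2 fold changes were 0.16 (SE 0.42) for Col1a1, 0.22 (SE 0.24) for Col1a2 and 0.15 (SE 0.49) for Col3a1, each with an adjusted p of 0.996 by edgeR. Without Control replicate 2 they were -0.18, -0.0027 and -0.25, and without NIHHL replicate 2 those of Col1a1 and Col3a1 were -0.14 and -0.07.

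NIHHL replicate 2 and Control replicate 3 were the 2 highest libraries for 6 members, the above 3 with Col5a3, Col6a1 and Col6a2, which is 15.0% of those tested and compares with 3.38% of all genes. This pair of libraries was noticed in the values, so the count is a description. Of the 18 listed markers of meningeal and perivascular fibroblasts, Slc22a6 and Fmod had the same top pair and the others did not. Slc22a6, an organic anion transporter, was at 3.36, 5.804, 2.698 and 2.71 CPM in NIHHL and 3.78, 2.18 and 5.61 CPM in Control. Dcn was highest in NIHHL replicate 1, at 62.9 CPM, and Lum in Control replicate 2, at 9.82 CPM. The fibroblast list as a whole did not have that top pair either. Its 18 genes summed to 519, 299.6, 360.1 and 363 CPM in NIHHL, against 263, 359 and 327 CPM in Control, and none was at 0 in every library. Igf2, which choroid plexus also makes, was 57.8 to 253 CPM of that sum in NIHHL and 47.7 to 154 CPM in Control. The part of fibroblast content in the fibrillar levels was not tested.

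Col11a2, a chain of the minor fibrillar collagen XI best known from cartilage, was the least variable fibrillar chain. It was the most abundant fibrillar chain per kilobase of annotated exon, though below Col1a2 by CPM. It was at 13.2, 14.2, 13.4 and 14.98 CPM in NIHHL, against 12.001, 9.69 and 11.9 CPM in Control. The lowest NIHHL library was above the highest Control library, though NIHHL replicate 1 and Control replicate 1 were close. Its log2 fold change was 0.32 (SE 0.11), with an adjusted p of 0.996 and rank 142 of 14417 genes by edgeR. A two-sided exact permutation test over the 7 libraries gave p = 0.0571, the smallest value that 4 against 3 libraries allow. Any gene whose groups do not overlap receives this value, so it only repeats that separation. Its log2 fold change was 0.23 without Control replicate 2.

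Col11a1, its partner, was at 2.72, 2.53, 2.53 and 4.42 CPM in NIHHL, against 2.83, 2.14 and 2.36 CPM in Control. NIHHL replicate 4 stood above the rest, the groups overlapped, and the log2 fold change of 0.33 (SE 0.24) became 0.0993 without that library. Col27a1, a fibrillar collagen of cartilage, was at 3.08, 2.99, 4.62 and 3.89 CPM in NIHHL, against 3.17, 3.27 and 3.02 CPM in Control. NIHHL replicates 3 and 4 lay above Control while replicate 1 lay within Control and replicate 2 just below it, with a log2 fold change of 0.21 (SE 0.20).

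Col5a1 and Col5a2, chains of the type V collagen that starts fibril assembly, averaged 3.76 ± 0.355 and 3.36 ± 0.792 CPM in NIHHL and 3.705 ± 0.921 and 2.97 ± 0.764 CPM in Control (SD, n = 4 and 3). Col5a3 averaged 0.866 ± 0.264 CPM in NIHHL and 0.892 ± 0.249 CPM in Control. Col2a1, the collagen of cartilage, was nearly absent at 5 to 13 counts per NIHHL library and 5 to 14 per Control library.

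**Figure D3:**
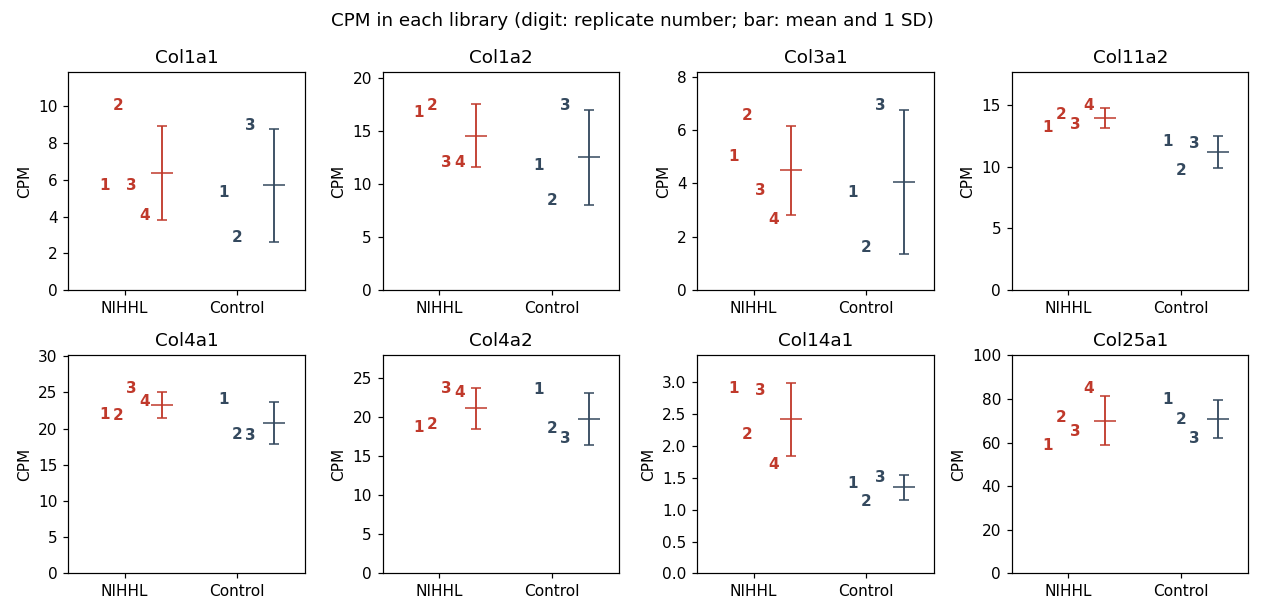
CPM of 8 chains in each library, NIHHL left of Control, with digits for the replicate number and bars for the mean and 1 SD (n = 4 and 3). The digits of both groups interleave for Col1a1, Col1a2, Col3a1, Col4a1, Col4a2 and Col25a1, and stand apart for Col11a2 and Col14a1.

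Among the basement membrane chains, Col4a1 and Col4a2 form the heterotrimer of nearly all basement membranes, including that of brain capillaries, where mutations cause small vessel disease. Col4a1 was at 21.95, 21.8, 25.5 and 23.7 CPM in NIHHL, against 24.1, 19.1 and 19.00 CPM in Control. Col4a2 was at 18.6, 18.96, 23.6 and 23.1 CPM in NIHHL, against 23.5, 18.5 and 17.2 CPM in Control. For both genes NIHHL replicate 3 was the highest library and Control replicate 1 the next, above the other 3 NIHHL libraries. The log2 fold changes were 0.17 (SE 0.11) and 0.10 (SE 0.13), with an adjusted p of 0.996 for each by edgeR, and they were 0.29 and 0.24 without Control replicate 1.

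Marker lists of the cell types that border basement membranes differed in direction, and their part in the type IV levels was not tested. The 14 endothelial markers summed to 318 to 330.0 CPM in NIHHL and 325 to 356 CPM in Control, with a positive log2 fold change in 3 of 14. The 12 mural markers summed to 176 to 190.2 CPM in NIHHL and 176 to 211 CPM in Control, with 5 of 12 positive. In the other lists 13 of 13 choroid plexus markers (median log2 fold change 0.71), 14 of 17 tested fibroblast markers (0.18) and 7 of 8 ependymal markers (0.46) were positive. None of these markers was at 0 in every library and 0 were called.

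The remaining type IV chains build the specialised basement membranes of kidney, lung and other epithelia. Col4a4 was at 4.28, 1.55, 3.03 and 4.13 CPM in NIHHL, against 1.28, 3.06 and 1.13 CPM in Control. NIHHL replicates 1 and 4 were highest, but Control replicate 2 lay above NIHHL replicates 2 and 3. Its log2 fold change was 0.80 (SE 0.42), with an adjusted p of 0.996 by edgeR and p = 0.1714 in the exact permutation test, and 1.44 without Control replicate 2. Col4a3, which lies beside it in the genome, was at 3.73, 0.632, 1.27 and 2.18 CPM in NIHHL, against 0.876, 2.64 and 0.896 CPM in Control. Its log2 fold change of 0.38 (SE 0.60) rested on NIHHL replicate 1, without which it was -0.16.

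Col4a5 was at 5.66, 3.16, 6.497 and 5.603 CPM in NIHHL, against 4.38, 4.699 and 4.34 CPM in Control. Col4a6, which starts next to Col4a5 on the X chromosome and runs the other way, was at 1.84, 1.32, 1.38 and 2.12 CPM in NIHHL, against 1.35, 1.38 and 1.27 CPM in Control. In Col4a5 3 of the 4 NIHHL libraries lay above Control and NIHHL replicate 2 below it, while in Col4a6 replicates 1 and 4 alone were clear of Control. The log2 fold changes were 0.23 (SE 0.22) and 0.32 (SE 0.26), neither called.

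Chains of the same collagen type, and Col3a1 of type III with Col1a2 of type I, were compared as the ratio of their counts per exon base within each library. The level of each ratio depends on the exon lengths used, and its fold range over libraries does not. Col4a1 over Col4a2 was the steadiest of the 7 pairs examined, at 1.05, 1.02, 0.959 and 0.912 in NIHHL and 0.907, 0.915 and 0.982 in Control, which is a 1.15-fold range. These 2 genes lie head to head, their annotated exons sharing 22 bases at the 5' ends on opposite strands. Col1a1 over Col1a2 ranged from 0.64 to 1.09 in NIHHL and from 0.637 to 0.975 in Control, a 1.71-fold range over the 7 libraries. The mean ratio of Col4a1 to Col4a2 was 0.984 ± 0.0606 in NIHHL and 0.935 ± 0.0411 in Control, and that of Col1a1 to Col1a2 was 0.816 ± 0.217 in NIHHL and 0.824 ± 0.172 in Control (SD).

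The Col8a1 over Col8a2 ratio was the least steady, at 0.634, 0.0565, 0.402 and 0.492 in NIHHL and 0.0771, 0.619 and 0.271 in Control, an 11.2-fold range. It was lowest in the 2 libraries with least choroid plexus RNA. Col4a3 over Col4a4 was 0.434 to 0.927 in NIHHL and 0.728 to 0.919 in Control, and Col4a5 over Col4a6 was 2.84 to 5.602 in NIHHL and 3.86 to 4.04 in Control.

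**Figure D4:**
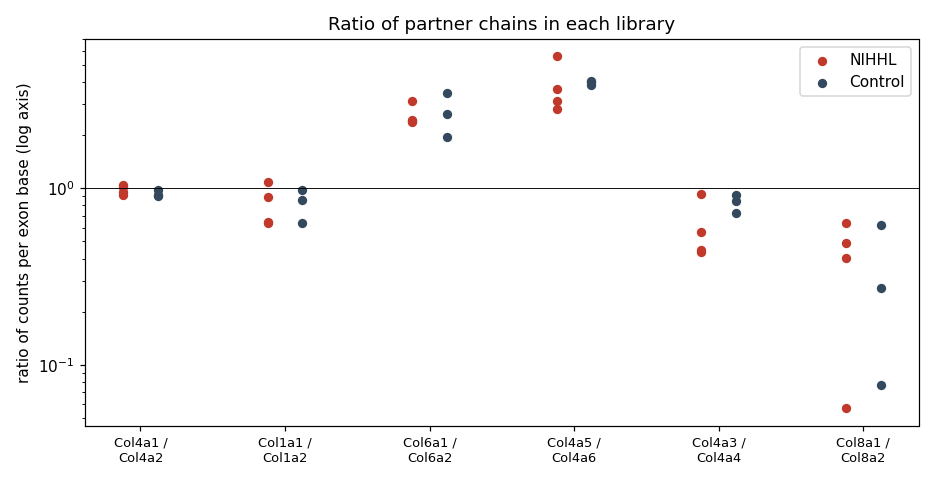
Ratio of counts per exon base for 6 pairs of chains in each library, on a log axis, NIHHL left of Control. Col4a1 over Col4a2 stays between 0.907 and 1.05, while Col8a1 over Col8a2 spans 0.0565 to 0.634.

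Several chains with a wide spread were lowest in the same 3 libraries as choroid plexus RNA. Col8a1 and Col8a2 encode the short-chain network collagen of vessel walls and of the corneal endothelium's basement membrane. Col8a1 was at 28.4, 0.805, 10.4 and 19.2 CPM in NIHHL, against 0.472, 17.03 and 3.82 CPM in Control. The highest library was 60.3-fold above the lowest. Col8a2 was at 25.7, 8.16, 14.8 and 22.4 CPM in NIHHL, against 3.51, 15.8 and 8.06 CPM in Control. Ttr, the main choroid plexus transcript, was at 7826, 487, 4355 and 3864 CPM in NIHHL, against 56.3, 6558 and 1283 CPM in Control. The 3 libraries low in Ttr, NIHHL replicate 2, Control replicate 1 and Control replicate 3, were also the 3 lowest for both chains, and NIHHL replicate 1 was the highest for all 3 genes.

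Col9a3, which trimerises with the other collagen IX chains on the surface of cartilage fibrils, was at 44.97, 9.08, 27.3 and 32.1 CPM in NIHHL, against 6.81, 33.02 and 12.97 CPM in Control. Its partners did not share this range: Col9a2 was at 2.42 to 3.91 CPM in NIHHL and 2.29 to 3.68 CPM in Control, and Col9a1 at 0.402 to 0.967 and 0.472 to 0.797 CPM. Col9a3 was also the only member with fractional counts, and 6.07% of its exon bases overlap Tcfl5 on the opposite strand. Col17a1, the transmembrane collagen of epithelial hemidesmosomes, was at 1.75, 0.172, 1.05 and 1.003 CPM in NIHHL, against 0.0674, 1.26 and 0.472 CPM in Control, from 1 to 38 counts per library.

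The same 3 libraries were the lowest for 10 of the 40 tested members, 25.0%, against 4.86% of all tested genes. The 10 were Col4a3, Col4a4, Col4a5, Col4a6, Col8a1, Col8a2, Col9a1, Col9a3, Col17a1 and Col18a1, and 0 of them were fibrillar. This set of libraries was chosen from the choroid plexus values, so the count is a description. Without Col8a1, Col8a2 and Col9a3, the other 41 chains summed to 229, 242.2, 237 and 261 CPM in NIHHL, against 245, 207 and 230.3 CPM in Control, and the groups overlapped. With all 44 chains the sum was 328, 260.3, 289.8 and 335 CPM in NIHHL, against 256, 273 and 255 CPM in Control, where NIHHL replicate 2 alone lay within the range of Control.

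The log2 fold changes of these chains carried wide errors. They were 1.00 (SE 1.302) for Col8a1, 0.93 (SE 0.61) for Col8a2, 0.67 (SE 0.73) for Col9a3 and 0.64 (SE 0.75) for Col17a1, each with an adjusted p of 0.996 by edgeR. With the log2 CPM of Ttr as a covariate they were 0.26 (SE 0.37), 0.50 (SE 0.18), 0.13 (SE 0.23) and 0.08 (SE 0.34), and that of Col4a3 was -0.08 (SE 0.42). Ttr itself had a log2 fold change of 0.65 (SE 1.57).

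**Figure D5:**
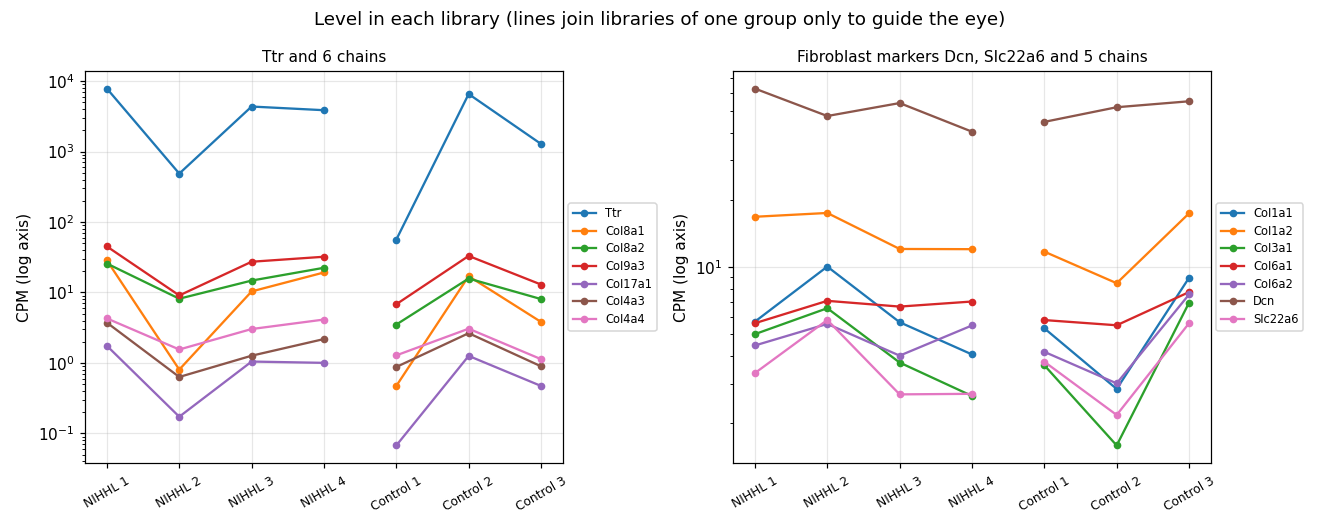
CPM in each library on log axes, NIHHL left of Control, for Ttr with 6 chains (left) and for the fibroblast genes Dcn and Slc22a6 with 5 chains (right). On the left NIHHL replicate 2 and Control replicate 1 are the low points of Ttr and Col8a1. On the right NIHHL replicate 2 and Control replicate 3 are the high points of Col1a1, Col3a1 and Slc22a6, while Dcn is highest in NIHHL replicate 1.

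Among the fibril-associated chains, Col14a1 had the smallest p of all members. Collagen XIV binds the surface of type I fibrils. Col14a1 was at 2.900, 2.18, 2.86 and 1.71 CPM in NIHHL, against 1.42, 1.13 and 1.51 CPM in Control. The groups did not overlap, with NIHHL replicate 4 close to Control replicate 3, at 29 to 63 counts in NIHHL and 21 to 32 in Control. The log2 fold change was 0.85 (SE 0.26), with an adjusted p of 0.996 and rank 59 of 14417 genes by edgeR. The exact permutation test gave p = 0.0571, as it must for groups that do not overlap. The fold change ranged from 0.73 to 0.98 when each library was left out in turn, and was 0.84 with Ttr as a covariate.

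Col20a1, a fibril-associated collagen, was at 1.105, 1.15, 0.606 and 0.354 CPM in NIHHL, against 1.48, 0.881 and 1.56 CPM in Control. It was the tested member with the most negative log2 fold change, -0.67 (SE 0.40, adjusted p = 0.996 by edgeR), from 6 to 24 counts in NIHHL and 21 to 33 in Control. Col26a1, a secreted chain with few collagen repeats, was at 1.66, 1.44, 1.101 and 0.767 CPM in NIHHL, against 0.809, 1.09 and 0.755 CPM in Control, a log2 fold change of 0.48 (SE 0.33). In both genes the groups overlapped. Col16a1 and Col12a1, which also bind fibrils, averaged 4.26 ± 0.409 and 7.74 ± 0.672 CPM in NIHHL and 5.05 ± 1.24 and 7.06 ± 1.95 CPM in Control (SD, n = 4 and 3).

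A pair of neuronal chains were examined for their known roles. Col25a1 was the most abundant member by CPM, with 1186 to 1439 counts in NIHHL and 1184 to 1686 in Control. It was at 58.8, 71.5, 65.3 and 84.9 CPM in NIHHL, against 79.8, 70.7 and 62.1 CPM in Control. The groups interleaved and the log2 fold change was -0.02 (SE 0.13). Col19a1, which in mice is made by hippocampal interneurons and takes part in inhibitory synapse formation, was at 2.53, 4.71, 2.64 and 4.54 CPM in NIHHL, against 4.79, 2.94 and 4.62 CPM in Control, again overlapping.

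Col18a1, a basement membrane proteoglycan core that releases endostatin, was at 6.21, 2.93, 4.29 and 5.13 CPM in NIHHL, against 3.101, 5.45 and 3.82 CPM in Control. Its log2 fold change of 0.16 (SE 0.26) was -0.0188 without NIHHL replicate 1 and -0.0885 with Ttr as a covariate. The related Col15a1 averaged 2.34 ± 0.336 CPM in NIHHL and 2.37 ± 0.644 CPM in Control. Col6a1 and Col6a2, of the beaded filaments around cells, averaged 6.59 ± 0.675 and 4.89 ± 0.766 CPM in NIHHL and 6.34 ± 1.21 and 4.92 ± 2.35 CPM in Control (SD, n = 4 and 3). Col6a4 had 8 to 46 counts in NIHHL and 0 to 21 in Control, with no count in Control replicate 3.

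Variation between libraries of the same group was larger for collagens than for the table as a whole. The median within-group SD of log2 CPM was 0.382 in fibrillar, 0.297 in basement membrane and 0.417 in other chains, beside 0.148 over all genes tested, many of which had more counts. The median ratio of the highest to the lowest library was 2.07 over the tested members and 1.34 over all genes tested, leaving out genes with no count in some library.

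Genes that make, cross-link, bind or degrade collagen were listed separately, and 0 members of the 5 lists were called by edgeR. Of 20 genes for folding and modification, 12 had a positive log2 fold change (median 0.12). The chaperone of procollagen Serpinh1 was at 27.4, 21.2, 23.3 and 21.2 CPM in NIHHL, against 17.5, 20.2 and 20.8 CPM in Control, and the lysyl hydroxylase Plod1 at 23.4, 22.6, 26.04 and 24.7 CPM in NIHHL, against 21.3, 20.3 and 21.9 CPM in Control. In both genes, named for the smallest p in their list, all NIHHL libraries lay above all Control libraries, by a narrow margin. Over all genes tested, 2.84% had such a separation. The log2 fold changes were 0.25 (SE 0.11) and 0.19 (SE 0.09), with an adjusted p of 0.996 for each by edgeR. The exact permutation test gave p = 0.0571 for each, as it must for groups that do not overlap.

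Of 11 tested genes for extracellular processing, 8 were positive (median 0.13). The cross-linking enzyme Loxl2 was at 3.82, 1.55, 2.37 and 2.01 CPM in NIHHL, against 1.01, 2.098 and 1.698 CPM in Control. The procollagen protease Adamts14 was at 0.9205, 0.747, 0.826 and 0.649 CPM in NIHHL, against 1.75, 1.43 and 0.519 CPM in Control. The groups overlapped in both genes. On the log2 scale NIHHL minus Control was 0.59 (SE 0.34) for Loxl2 and -0.61 (SE 0.40) for Adamts14. Of 10 tested receptors, 7 were positive (median 0.04), and the platelet receptor Gp6 had no count in any library. Ddr1, a receptor tyrosine kinase that collagen activates and that oligodendrocytes express, was at 82.8, 74.7, 78.3 and 80.3 CPM in NIHHL, against 66.3, 65.5 and 71.3 CPM in Control. All NIHHL libraries lay above Control, as in 2.84% of all genes tested. The log2 fold change was 0.22 (SE 0.07), with an adjusted p of 0.996 by edgeR. The exact permutation test gave p = 0.0571, as it must for such a separation. The 5 oligodendrocyte markers summed to 7243 to 8631 CPM in NIHHL and 6309 to 7951 CPM in Control, with a positive log2 fold change in 5 of 5, and their part in the Ddr1 level was not tested. The collagen-binding integrin Itga10 was at 2.39, 1.21, 1.71 and 1.95 CPM in NIHHL, against 0.337, 1.59 and 1.46 CPM in Control, with overlapping groups. Both Itga10 and Loxl2 were lowest in NIHHL replicate 2, Control replicate 1 and Control replicate 3. These were the libraries low in choroid plexus RNA, and 4.86% of all tested genes had the same lowest set.

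Of 9 tested genes for turnover, 4 were positive (median -0.0021). Timp3, an inhibitor of matrix metalloproteinases, was at 153, 125, 136 and 147 CPM in NIHHL, against 121, 124 and 119 CPM in Control. NIHHL replicate 2 and Control replicate 2 were nearly level, and the part of choroid plexus content in the Timp3 level was not tested. The log2 fold change was 0.21 (SE 0.08), with an adjusted p of 0.996 by edgeR. All NIHHL libraries lay above all Control libraries, as in 2.84% of all genes tested. That separation fixed the exact permutation test at p = 0.0571. The collagen-degrading protease Ctsk was at 2.21, 2.01, 1.65 and 3.19 CPM in NIHHL, against 0.876, 1.64 and 2.69 CPM in Control, with overlapping groups.

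Of 14 partners in the basement membrane, 10 were positive (median 0.05). The laminin chain Lama5 was at 16.2, 8.91, 11.3 and 13.6 CPM in NIHHL, against 6.67, 10.03 and 9.15 CPM in Control. NIHHL replicate 2 alone lay within the Control range, and the log2 fold change was 0.53 (SE 0.20), with an adjusted p of 0.996 by edgeR and p = 0.1714 in the exact permutation test. Hspg2, the core protein of perlecan, was at 15.4, 10.8, 12.99 and 11.502 CPM in NIHHL, against 9.03, 11.4 and 10.4 CPM in Control, a log2 fold change of 0.30 (SE 0.14). Both Lama5 and Hspg2 were lowest in NIHHL replicate 2, Control replicate 1 and Control replicate 3. Those libraries were low in choroid plexus RNA, and 4.86% of all tested genes had the same lowest set.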

How the data were processed

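Polyadenylated RNA from 7 hippocampal samples was sequenced, per the labels' protocols. The authors deposited 1 table of expected counts per gene, not scaled to library size, of which 90.7% of values were whole numbers. Per the submitters' processing notes, the tools were HISAT2, Bowtie2 2.2.8, DESeq2 and StringTie 1.3.1, with no role stated for any. Build, annotation, strand setting and counter: not given in the sources used here, so reads in exons shared between strands cannot be assigned.

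Counts were rounded, and genes were kept by edgeR's filterByExpr at a minimum count of 10, which left 14417 of 21965 genes and 40 of 44 members. CPM use trimmed mean of M values factors. The 2 groups were set against each other in edgeR's quasi-likelihood test (robust, group as the only term), with Benjamini-Hochberg adjustment over all tested genes and a call at an adjusted p under 0.05. Exact permutation tests of 8 single genes, added after seeing the data, used log2(CPM + 0.5). The SE is the log2 fold change over the square root of F. The functions were tested on simulated data. Exon lengths are the union of all exons annotated for a gene in GENCODE M21, and promoters are from RefSeq GRCm38.p6. Software was R 4.3.3, edgeR 4.0.16, limma 3.58.1 and DESeq2 1.42.0.

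Members and lists were chosen with earlier results of these data known, so no list was tested. The genes given in full were 7 preset chains, the highest chain and the 3 with the smallest p in each class, and the 2 with the smallest p in each list of partners. Col8a1, Col8a2, Col9a3, Col17a1, Col4a3, Col4a5 and chains given in passing were named after their values were seen. Counts without molecular identifiers are not independent molecules.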

Additional observations from a re-analysis of the deposited data

Results flagged for a closer look

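In 3 of 71 values examined, 1 NIHHL library stood apart from the other 3, with its gap to the nearest of them above Dixon's 95% critical value of 0.829 of the group's range; chance flags about 1 in 20 such groups, and the 3 Control libraries were too few for this check. Col11a1 was at 4.42 CPM in NIHHL replicate 4, against 2.53 to 2.72 CPM in the other 3 NIHHL libraries, a gap of 0.901 of the range. Col5a3 was at 0.472 CPM in NIHHL replicate 4, against 0.967 to 1.03 CPM in the others, from 8 counts. Col10a1 was at 0.046 CPM in NIHHL replicate 1, which is 1 count, against 0 in the others.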

How the results depend on the processing

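The number of collagen chains called stayed at 0 under all 16 alternatives: size factors, no filter, DESeq2, limma-voom, each library left out, 2 pairs of libraries left out, the replicate block, a gene length correction and Ttr as a covariate. Over all genes, DESeq2 called 4 (mt-Atp8, Hsd3b1, Akr1cl and Dnah6), and leaving out Control replicate 2 together with NIHHL replicate 4 gave 1 (Gcat). Positive members numbered 24 to 33 with 1 library left out. In the same fits the fibrillar median was -0.08 to 0.26, the basement membrane median 0.16 to 0.41 and that of the other chains 0.08 to 0.18. Of 496 named log2 fold changes under alternatives 18 changed sign. With 1 library left out, Col1a1 ranged from -0.18 to 0.67, Col1a2 from -0.0027 to 0.54, Col3a1 from -0.25 to 0.83, Col18a1 from -0.0188 to 0.42, Col4a3 from -0.16 to 1.16 and Col25a1 from -0.12 to 0.0764. Without that pair, Col1a1 was -0.0227 and Col3a1 -0.0753. Without Control replicate 1 and NIHHL replicate 2 together, an alternative chosen after seeing the data, Col1a1 was -0.18, Col3a1 -0.14 and Col25a1 0.0695. With Ttr as a covariate Col18a1 was -0.0885, Col4a3 -0.082 and Col25a1 0.0479. The cause was not tested. Same-numbered samples did not deviate together (r = -0.45, -0.44 and 0.06). The highest r was 0.48, for Control replicate 2 with NIHHL replicate 1, both high in choroid plexus RNA. Differences in tissue content enter such correlations, so they cannot show whether samples were paired, and the labels do not say. With the replicate block 0 members were called and 34 were positive. The medians were then 0.17, 0.16 and 0.09 in fibrillar, basement membrane and other chains. Col4a6, Col17a1, Col20a1, Col26a1 and Adamts14 had under 50 counts in every library, as did some chains given in passing. How far depth limits them was not tested.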
